A study of Danio rerio with 4 samples.

Results

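The comparison described here sets the expansion stage of coronary growth in zebrafish (Danio rerio) against the maturation stage, cell class by cell class. The expansion library was made from 1 pool of 12 heart ventricles of fish of 18 mm body length (2.5 months). The maturation library was made from 1 pool of 5 ventricles of fish of 28 mm (8 months). Both pools came from fish labelled WT, strain AB, and so did the pools of the other 2 libraries, initiation (10 mm, 1.5 months, 25 ventricles) and establishment (14 mm, 2 months, 18 ventricles), which appear below only as side values. Dissociated cells of each pool were run as 1 droplet-based single-cell RNA library, and all 4 libraries carry the same batch label.

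Cells were chosen by fixed marker sums. A barcode was kept with at least 2500 UMIs (unique molecular identifiers, each counting 1 captured RNA molecule), at least 600 genes and at most 12% of UMIs from genes named mt-. Cardiomyocytes (CMs) were allowed up to 40%. The CM gate held barcodes with at least 10 UMIs of the sarcomere genes ttn.1, ttn.2 and myh7l together. The endothelial cell (EC) gate held barcodes with at least 2 UMIs of cdh5, spock3, aqp8a.1 and f8 together and fewer than 3 UMIs of the CM genes. The epicardial gate held barcodes with at least 3 UMIs of gcga, postnb and adh8a together and none of cdh5 or spock3. These genes chose the cells, so their values are no finding. The gates took 13674 of the 20688 barcodes gated across the 4 libraries.

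The 3 cell classes build the growing heart together. CMs contract, and they take fatty acids and glucose as fuel. ECs line the ventricular lumen as endocardium and the coronary vessels, and they read flow, oxygen and blood-borne signals. The epicardium is the outer sheet of the heart, which makes matrix, retinoic acid and growth factors and gives rise to fibroblasts and mural cells, the smooth muscle cells and pericytes around vessels. Fish of 18 mm are juveniles whose coronary vessels still spread over the ventricle, and fish of 28 mm are adults.

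Each stage is 1 pool, so stage cannot be told apart from pool, library or age, and no test between stages was possible. UMIs were summed over the barcodes of a gate and given as counts per 1000000 UMIs of that gate (CPM). Intervals behind a fold are exact 95% intervals of counting error alone, with no spread between fish in them. A gene is called higher or lower here when its CPM differed at least 2-fold and its mean CPM over both libraries was at least 10. The words "higher" and "lower" below always mean maturation against expansion.

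The libraries held 128056006 UMIs at expansion and 161798583 at maturation. The CM gate took 2509 of 12059 kept barcodes at expansion (20.8%, exact interval 20.1 to 21.5) and 913 of 6527 at maturation (14.0%, 13.2 to 14.9). The EC gate took 6279 (52.1%) and 3134 (48.0%), and the epicardial gate took 625 (5.18%) and 296 (4.54%). Median UMIs per barcode were 6320 and 6051 in the CM gate, 4914 and 5557 in the EC gate, and 6568 and 10025 in the epicardial gate. Median genes per barcode were 1438 and 1134 in the CM gate, 1554 and 1488 in the EC gate, and 1946 and 2395 in the epicardial gate. So CM barcodes held fewer genes at maturation at similar UMIs. Of all UMIs in the EC gate, the share from any mitochondrial gene name was 9.13% at expansion and 25.8% at maturation. It was 9.20% and 16.8% in the epicardial gate and 30.0% and 29.8% in the CM gate. Free RNA was read from barcodes with 1 to 100 UMIs of the same library and is called the background CPM below. Judged by globin UMIs, background made up 17.5% and 14.2% of the CM gate, 19.5% and 7.76% of the EC gate, and 8.24% and 1.96% of the epicardial gate. A second estimate went the other way. Barcodes with 500 to 2000 UMIs and under 200 genes numbered 22735 at expansion (84.6% of UMIs mitochondrial) and 45131 at maturation (90.03%), and their profile, at their median UMIs per gated cell, came to 8.28% and 19.1% of the CM gate, 9.86% and 21.0% of the EC gate, and 8.10% and 11.7% of the epicardial gate. The libraries shared 12 gated barcodes.

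In each gate the markers of the class it was built for summed above background, and the gates held other cells too. The 8 CM markers outside the gate rule summed to 39981 CPM at expansion and 67266 at maturation in the CM gate, with background at 27565 and 38232 CPM. In the EC gate, the endothelial markers (fli1a, kdrl, tie1 and others) summed to 2091 and 2085 CPM, with background at 595 and 314 CPM. The endocardial markers (nfatc1, klf2a and others) summed to 3750 and 4068 CPM there, with background at 2327 and 1236 CPM. In the epicardial gate, the epicardial markers (tcf21, tbx18, wt1b, aldh1a2 and others) summed to 7986 and 8363 CPM. Of the CM-gate barcodes, 838 at expansion (33.4%) and 273 at maturation (29.9%) also held at least 2 UMIs of the EC gate genes. Smooth muscle markers differed between expansion and maturation in the CM gate. At expansion 271 of 2509 barcodes (10.8%, 9.61 to 12.1) held at least 3 UMIs of tagln, mylka, cnn1b and lmod1b. At maturation 45 of 913 did (4.93%, 3.62 to 6.54).

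More genes were lower than higher at maturation in every gate. In the CM gate, 294 of 6153 genes compared (4.78%) were higher and 597 (9.7%) were lower. In the EC gate 202 of 7032 (2.87%) were higher and 438 (6.23%) lower, and in the epicardial gate 248 of 7168 (3.46%) were higher and 585 (8.16%) lower. The median gene itself stood at -0.08 on the log2 scale in the CM gate, at -0.19 in the EC gate and at -0.14 in the epicardial gate. Taken relative to the median gene, 367 genes (5.96%) were higher and 522 (8.48%) lower in the CM gate, 303 (4.31%) and 236 (3.36%) in the EC gate, and 355 (4.95%) and 441 (6.15%) in the epicardial gate. With all mitochondrial and globin UMIs out of the total, the counts were 370 and 710, 505 and 192, and 381 and 501. So the direction of the EC split depended on the scaling. The share of all genes called in a gate is the base for each list count below.

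**Figure D1:**
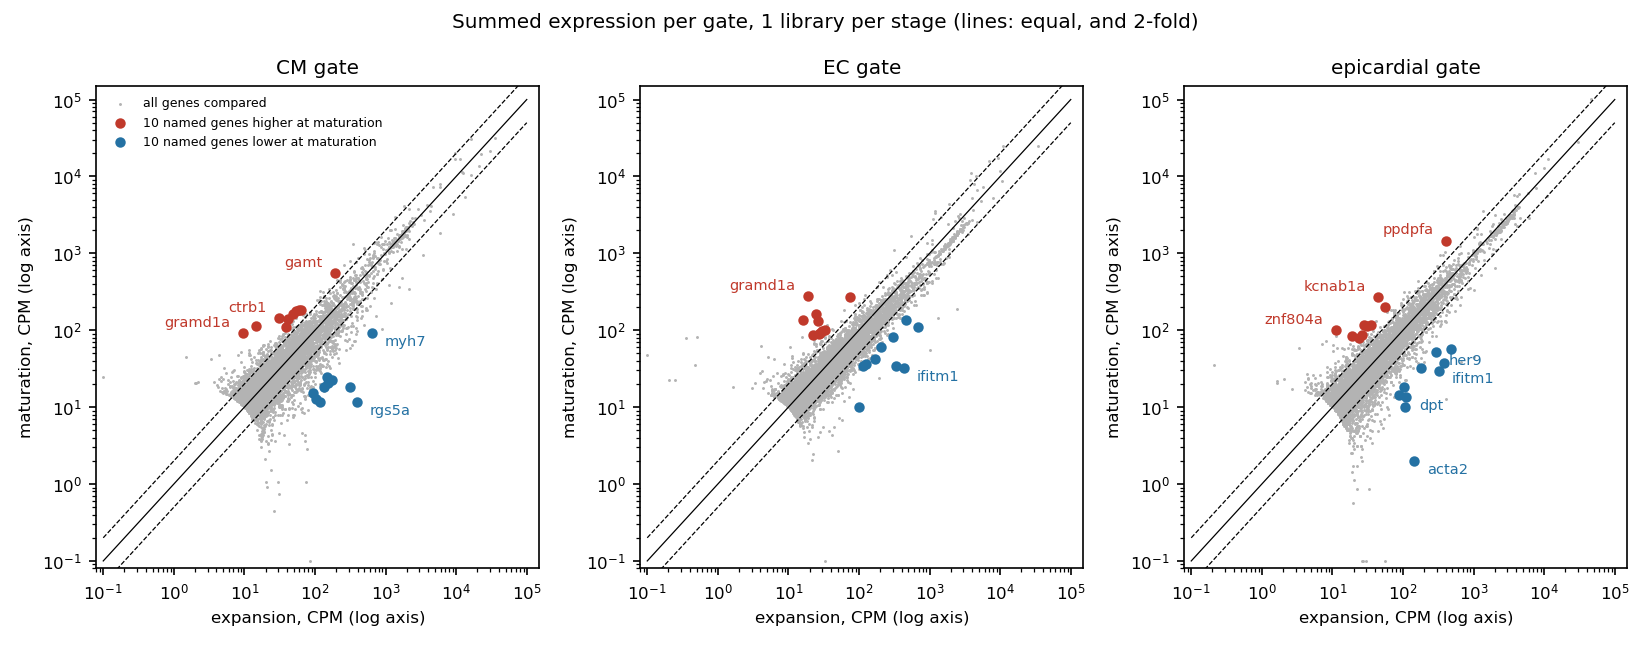
CPM of each gene compared at expansion (x, log axis) and maturation (y, log axis) in the 3 gates, 1 library per stage, with values under 0.1 drawn at 0.1; the solid line marks equal CPM and the dashed lines a 2-fold difference. Red points are the 10 named genes higher at maturation and blue points the 10 named genes lower, led by gramd1a and rgs5a in the CM gate, gramd1a and ifitm1 in the EC gate, and znf804a and acta2 in the epicardial gate.

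In CMs, the maturation library held more RNA of a few abundant contractile and mitochondrial genes and less of single genes for excitation, calcium entry, glucose uptake and stress. Of the sarcomere genes outside the gate rule, 2 of 39 compared were higher and 11 lower (list median -0.61), against 4.78% and 9.7% of all genes. The 11 lower genes include acta2 and tpm1, whose UMIs lay mostly in barcodes with smooth muscle markers, and the list median was -0.53 without such barcodes and -0.28 without mixed and very large barcodes. The cardiac myosin light chain cmlc1 stood at 9483 CPM at expansion and 20463 at maturation, 2.16-fold higher (2.14 to 2.17), with background at 8343 and 15060 CPM. The light chain myl7 went from 16219 to 30449 CPM, 1.88-fold, which is short of a call. The 8 CM markers, both light chains among them, had summed to 32720 CPM at initiation and 63016 CPM at establishment. So their sum at maturation (67266 CPM) was near that at establishment. The thin-filament gene tnnt2a (cardiac troponin T) stood at 5899 and 7192 CPM, and the troponin I gene tnni1b at 1582 and 1527 CPM.

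Lower sarcomere genes included a ventricular myosin. The ventricular myosin heavy chain myh7 (long called vmhc) fell from 638 CPM at expansion to 91.4 CPM at maturation, 6.98-fold lower (6.44 to 7.59). It had stood at 1239 CPM at initiation and 792 CPM at establishment, so maturation was the lowest of the 4 libraries. In barcodes thinned to 2500 UMIs each, 40.9% held a UMI of myh7 at expansion and 8.32% at maturation, with background at 95.4 and 3.55 CPM. The skeletal-type actin acta1a fell from 313 to 58.3 CPM, 5.37-fold (4.85 to 5.97). The gate genes stood at 3413 and 947 CPM for ttn.1 and 5925 and 1841 CPM for ttn.2. The gate counts these titin UMIs, so the share of CM barcodes and the titin values are not independent measures. For the same reason the titin values are no finding and are not counted with the lower sarcomere genes.

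Several genes that carry the cardiac action potential were lower. The ion channel list also holds sodium pump and gap junction genes. Of its 16 genes compared, 1 was higher and 9 lower (list median -1.09), against 4.78% and 9.7% of all genes. The cardiac sodium channel scn5lab stood at 152 CPM at expansion and 20.4 CPM at maturation, 7.45-fold lower (6.27 to 8.91), after 170 and 231 CPM at initiation and establishment. Its background was 8.85 and 0.888 CPM. A UMI of scn5lab was found in 27.7% of thinned CM barcodes at expansion and 2.96% at maturation. The sodium channel beta subunit scn4ba stood at 446 and 205 CPM, and the repolarizing potassium channel kcnh6a at 80.8 and 29.9 CPM. The pacemaker channel hcn4 stood at 32.5 and 6.31 CPM.

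Of 29 calcium handling genes, 3 were higher and 10 lower (median -0.53), against 4.78% and 9.7% of all genes. The sodium-calcium exchanger slc8a1a, which moves calcium out of the CM, fell from 1720 to 479 CPM, 3.59-fold (3.46 to 3.72), and it had stood at 1486 and 1512 CPM in the earlier libraries. The L-type calcium channel cacna1c went from 263 to 74.1 CPM (3.55-fold lower), the T-type channel cacna1g from 377 to 108 CPM (3.49-fold lower), and the ryanodine receptor ryr2b from 289 to 72.1 CPM (4.0-fold lower, 3.64 to 4.4). The brake on the calcium pump, pln, went the other way without reaching 2-fold, at 2905 and 3784 CPM. For each of these 4 lower genes the maturation value was the lowest of the 4 libraries.

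Respiratory chain genes as a list sat above the median gene. Of 88 oxidative phosphorylation genes, 2 were higher and 1 lower, against 4.78% and 9.7% of all genes, so calls were not more frequent than among all genes. The list median was 0.36 against -0.08 for all genes. The list summed to 33501 CPM at expansion and 44785 CPM at maturation, after 35340 CPM at initiation and 68442 CPM at establishment. So establishment, not maturation, held the highest sum. The respiratory chain component ndufa4 stood at 497 and 1188 CPM, 2.39-fold higher (2.32 to 2.46), and the complex I subunit ndufb7 at 380 and 782 CPM, 2.06-fold higher. Background CPM was higher too, going from 356 to 611 for ndufa4 and from 465 to 706 for ndufb7. Its part in these folds was not tested beyond the subtraction given with the alternatives. The fatty acid carrier fabp3 stood at 707 and 1391 CPM, 1.97-fold and so not called.

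Genes of fuel use were called lower more often than higher, without a shift of the fatty acid list as a whole. Among 27 fatty acid oxidation genes none was higher and 5 were lower (median 0.03). They included pdk2a, a pyruvate dehydrogenase kinase, at 454 and 145 CPM (3.14-fold lower). Also among them was the mitochondrial fatty acid importer cpt1ab, at 83.0 and 37.9 CPM (2.19-fold lower). The coactivator of mitochondrial genes, ppargc1a, stood at 105 and 32.8 CPM (3.22-fold lower, 2.79 to 3.72), and the lipid-sensing receptor pparab at 109 and 43.9 CPM. Of 25 glycolysis genes, 1 was higher and 5 lower (median -0.36). The list sum went the other way, from 13592 to 17085 CPM, with background at 7488 and 6832 CPM. It had been 11465 CPM at initiation and 21285 CPM at establishment. A UMI of the abundant member gapdh was found in 92.7% of thinned CM barcodes at expansion and 97.5% at maturation. Among all genes of the gate, 4.78% were higher and 9.7% lower. The glucose transporter slc2a1a (Glut1) fell from 104 to 12.6 CPM, 8.21-fold (6.60 to 10.3), and its paralog slc2a1b from 323 to 95.3 CPM, 3.39-fold. The lactate exporter slc16a3 stood at 101 and 24.6 CPM and hexokinase hk1 at 178 and 53.8 CPM. UMIs of slc2a1a were seen in 21.8% of thinned CM barcodes at expansion and 2.96% at maturation.

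Metabolic enzymes were among the named higher genes of the CM gate. The enzyme gamt, which makes creatine, stood at 189 CPM at expansion and 555 CPM at maturation, 2.93-fold higher (2.80 to 3.07). It had stood at 204 and 332 CPM at initiation and establishment. The brain-type creatine kinase ckbb stood at 107 and 249 CPM, 2.32-fold higher, while the muscle form ckma stood at 917 and 1331 CPM and was not called. Cytosolic malate dehydrogenase, mdh1ab, went from 41.7 to 138 CPM, 3.32-fold higher (3.02 to 3.66). The translation repressor eif4ebp1 went from 59.5 to 182 CPM, 3.06-fold. Background was 200 and 324 CPM for gamt, 14.2 and 32.7 CPM for mdh1ab and 42.5 and 59.0 CPM for eif4ebp1.

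The other higher genes of the CM gate were of less certain source. The digestive enzyme precursor ctrb1 (chymotrypsinogen), a gene of the pancreas, stood at 31.3 and 144 CPM with background at 17.5 and 76.6 CPM. The lipid transfer gene gramd1a (9.40 and 90.9 CPM), fam174b (48.0 and 164 CPM), the potassium channel kcnq5a (53.9 and 178 CPM), the sphingosine-1-phosphate exporter spns2 (38.5 and 112 CPM) and the complement gene c7a (62.4 and 181 CPM) completed the 10, with the unnamed locus BX908782.3 (14.4 and 113 CPM). Once barcodes that also met the markers of another class or were very large were left out, 1425 CM barcodes at expansion and 567 at maturation remained. There BX908782.3, ctrb1, mdh1ab, eif4ebp1 and gamt were still at least 2-fold higher. The log2 differences of gramd1a (0.33), fam174b (0.45), kcnq5a (0.01) and c7a (0.92) were then under 2-fold, and spns2 turned to -1.06. Over all calls, 123 of the 294 higher genes and 482 of the 597 lower genes were still called.

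Of the 10 named lower genes of the CM gate, the steepest falls were of mural genes. The G-protein regulator rgs5a, known from pericytes and smooth muscle, fell from 393 to 11.6 CPM, 34.0-fold (27.2 to 43.1). Smooth muscle actin, acta2, fell from 310 to 18.3 CPM, smooth muscle myosin, myh11a, from 175 to 22.2 CPM, and the tropomyosin tpm1 from 117 to 11.6 CPM. All 7 smooth muscle markers compared were lower, and their sum was 881 CPM at expansion and 116 at maturation. The sum had been 1823 CPM at initiation and 201 CPM at establishment, so its order across the libraries was not a steady one. At expansion the 271 CM-gate barcodes with smooth muscle markers held 95.0% of acta2 UMIs, 98.3% of rgs5a, 96.8% of myh11a and 97.5% of tpm1. Without such barcodes, the log2 difference was 0.09 for rgs5a, 0.99 for tpm1 and 1.02 for myh11a, so those 3 calls did not hold. The values of acta2, slc2a1a, scn5lab, myh7 and the unannotated loci CABZ01072614.1, CABZ01045617.1 and si:ch211-266g18.10 kept at least a 2-fold fall with either set of barcodes left out.

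**Figure D2:**
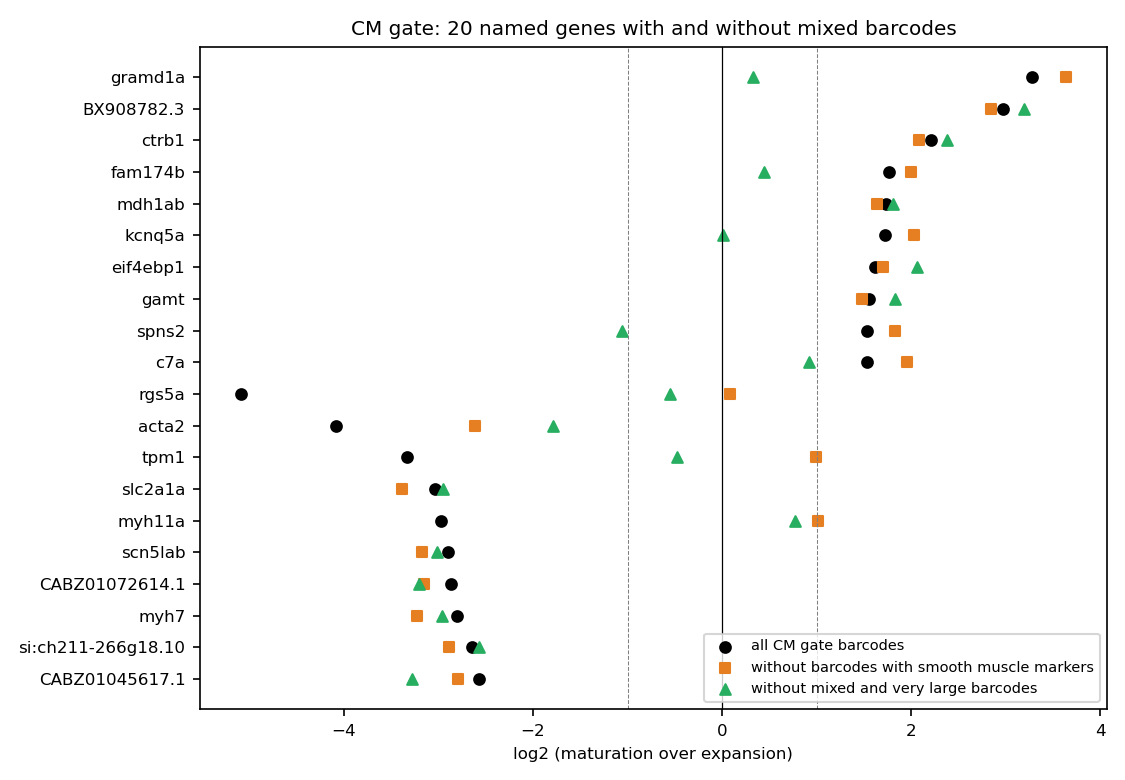
Log2 difference, maturation over expansion, of the 20 named genes of the CM gate in all its barcodes (circles), without barcodes holding smooth muscle markers (squares) and without mixed and very large barcodes (triangles); dashed lines mark 2-fold. rgs5a, tpm1 and myh11a moved from far below the line to near or above 0, whereas slc2a1a, scn5lab and myh7 stayed on the lower side and gamt and mdh1ab on the higher side.

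Hormone, growth factor and stress lists of CMs held lower members too. The natriuretic peptides, secreted by stretched CMs, fell from 524 to 197 CPM for nppa (2.66-fold, 2.51 to 2.82) and from 465 to 178 CPM for nppb (2.61-fold). Both had been higher still at initiation, at 1627 and 1061 CPM. The neuregulin receptor erbb4b, which carries a growth signal from endothelium to CMs, fell from 143 to 41.78 CPM (3.43-fold, 3.03 to 3.90), and its partner erbb2 from 82.3 to 34.3 CPM. Of 23 Vegf and angiogenesis genes 1 was higher and 4 lower, against 4.78% and 9.7% of all genes. All 4 lower genes were ligands. They were vegfaa (86.0 and 42.5 CPM, 2.02-fold lower, 1.78 to 2.30), vegfab (77.8 and 26.3 CPM), angpt1 (104 and 38.9 CPM) and angpt4 (72.5 and 24.2 CPM). The fall of vegfaa was under 2-fold with at least 5000 UMIs per barcode (-0.78) and with the mitochondrial limit at 12% (-0.75).

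Thyroid and glucocorticoid response genes had 1 of 17 higher and 6 lower (median -0.82), against 4.78% and 9.7% of all genes in the gate. The cortisol-inactivating enzyme hsd11b2 stood at 184 and 49.7 CPM (3.69-fold lower), the glucocorticoid-induced chaperone fkbp5 at 127 and 43.1 CPM and the transcription factor foxo3b at 224 and 83.9 CPM. Heat shock genes had 1 of 35 higher and 7 lower (median -0.37). The inducible chaperone hsp90aa1.1, which also folds myosin in muscle, fell from 1541 to 363 CPM (4.24-fold, 4.07 to 4.42), and the co-chaperone bag3 from 1104 to 389 CPM. In contrast hsp70l stood at 1829 and 4115 CPM, close to its background of 1995 and 3273 CPM, and it was seen in 78.6% of thinned CM barcodes at expansion but 46.0% at maturation. No direction is read from it. Clock genes had none higher and 7 of 32 lower, among them clocka at 118 and 32.5 CPM.

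Among iron genes, an uptake gene was lower and a storage gene higher. The transferrin receptor tfr1a, which takes iron up, fell from 86.9 to 18.9 CPM (4.59-fold, 3.83 to 5.54). Ferritin heavy chain, fth1a, which stores iron, rose from 510 to 1114 CPM (2.19-fold, 2.12 to 2.25), with background at 474 and 541 CPM. Of the 31 genes of iron and oxidative stress, 5 were higher and 2 lower (median 0.54), against 4.78% and 9.7% of all genes. Only 4 of the 35 cell cycle genes passed the filter on low values, and none of them was called. Collagen genes had 1 of 16 higher (median 0.62), near the share of all genes. Their values lay near background, as for col1a2 at 71.2 and 120 CPM against 146 and 94.4 CPM.

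**Figure D3:**
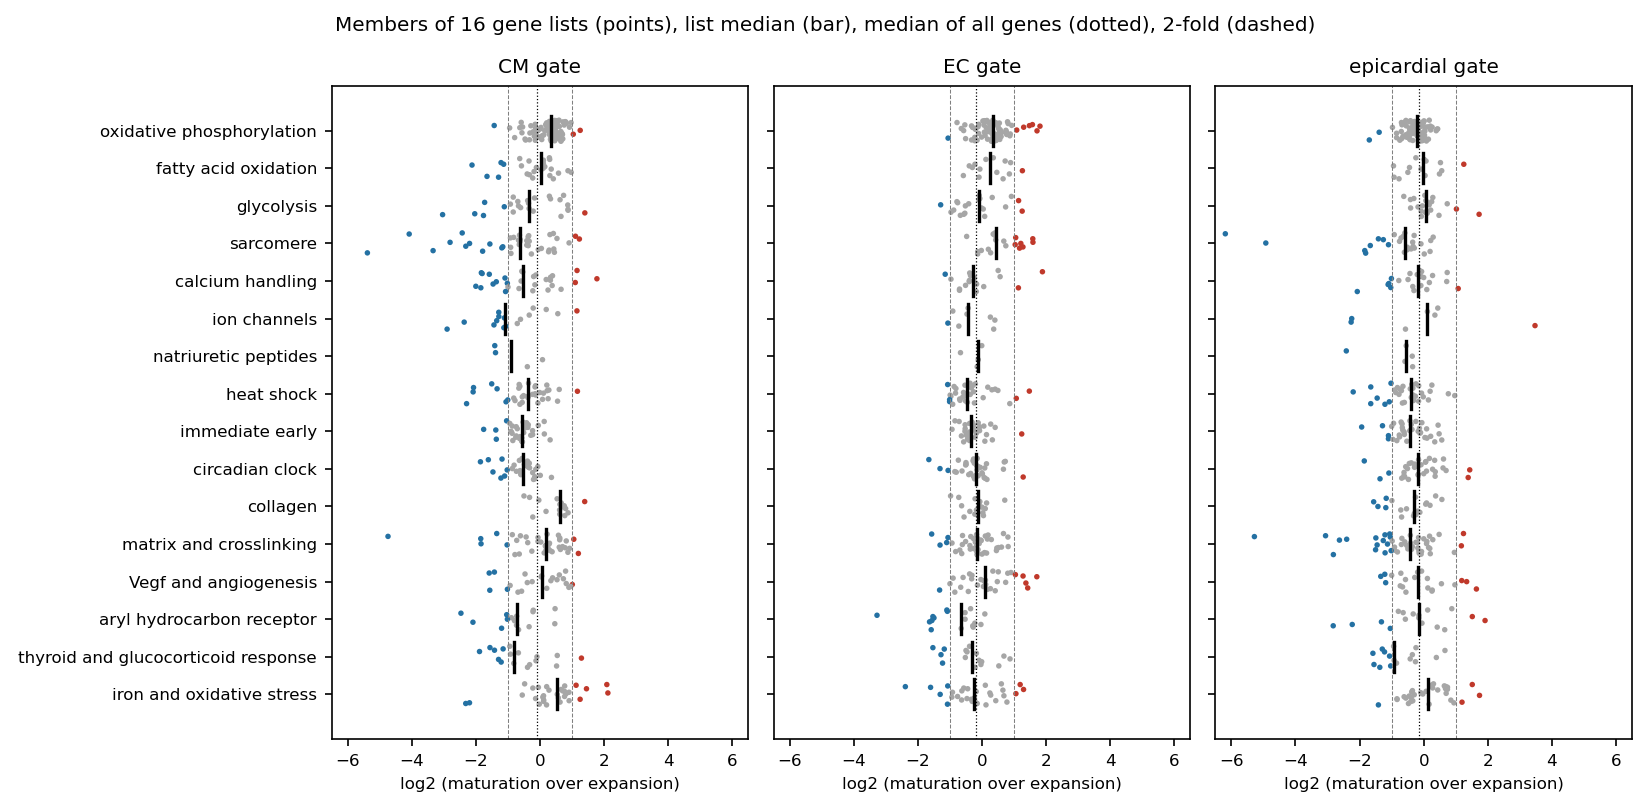
Log2 difference, maturation over expansion, of each member compared (points) of 16 gene lists in the 3 gates, gate genes left out; red and blue points lie past 2-fold (dashed lines), black bars are list medians and the dotted line is the median of all genes. Sarcomere, calcium and ion channel genes spread to the lower side in the CM gate, and matrix genes in the epicardial gate. Aryl hydrocarbon receptor genes did so in the CM and EC gates, and glucocorticoid genes in the CM and epicardial gates.

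In ECs, etv2 and its chromosomal neighbours were higher and aryl hydrocarbon receptor targets lower, while pan-endothelial genes were not called. The endothelial transcription factor etv2, an early driver of vessel fate, stood at 16.1 CPM at expansion and 136 CPM at maturation, 8.43-fold higher. Its initiation and establishment values were 49.6 and 20.8 CPM. The neighbouring ETS factor fli1b stood at 24.7 and 161 CPM (6.52-fold), and the kinase gene dyrk1b at 29.7 and 98.7 CPM (3.32-fold). The gene gramd1a led the list at 19.1 and 275 CPM (14.4-fold), after 153 CPM at initiation and 23.5 CPM at establishment.

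These genes lie side by side on chromosome 16 in the order scn1ba, gramd1a, si:ch211-225p5.8, pycard, caspa, etv2, fli1b, zp3d.2, zp3d.1 and dyrk1b. The order was read from the RefSeq annotation of the assembly GRCz12tu, which is not the build of the files, so no positions are given. The pyroptosis caspase caspa had 14 UMIs at expansion (0.352 CPM) and 1660 at maturation (80.1 CPM), 228-fold more by CPM. No UMI of si:ch211-225p5.8 was counted at expansion against 994 at maturation (47.9 CPM), which is at least 636-fold higher if 3 counts are allowed for a count of 0 in that library. The egg-coat genes zp3d.2 (0.201 and 22.2 CPM) and zp3d.1 (0.251 and 22.5 CPM) rose as well. The inflammasome adaptor pycard stood at 2.03 and 13.7 CPM, under the filter on low values. The next gene, scn1ba, had 19 and 9 UMIs, too few to show where the stretch ends.

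Of 10 consecutive genes there, 8 were called higher in the EC gate, where 2.87% of all genes were. No other run of 10 genes in the annotation held 4 or more higher calls in this gate. The same run was found in the CM gate (gramd1a, caspa, etv2 and fli1b) and none in the epicardial gate, in which gramd1a stood at 10.4 and 13.1 CPM. The initiation library stood with maturation for caspa (53.4 CPM) and zp3d.2 (8.17 CPM), and the establishment library with expansion (6.46 and 0.513 CPM). The study imaged coronary vessels in a line, TgBAC(etv2:EGFP), that carries a bacterial artificial chromosome built around etv2, whereas the pools sequenced are labelled WT. Whether fish carrying such a stretch entered any pool was not tested, since no gene for the fluorescent protein is among the features counted. So the values of etv2 and its neighbours are given as measured and not as a stage difference.

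Of the 10 named EC genes that were higher, 6 lay elsewhere. The glycerol-3-phosphate dehydrogenase gpd1b went from 26.1 to 133 CPM (5.07-fold, 4.72 to 5.45), with background at 20.5 and 53.9 CPM. The calcium pump atp2a1 went from 74.0 to 274 CPM (3.71-fold, 3.55 to 3.88) and the vesicular monoamine transporter slc18a2 from 26.8 to 88.1 CPM. The membrane-curving protein gene sh3glb2a went from 22.6 to 87.7 CPM, the linker histone gene histh1l from 33.0 to 102 CPM and zgc:152791 from 28.1 to 91.0 CPM. The growth factor binding protein igfbp6b stood at 62.2 and 182 CPM (2.93-fold, 2.79 to 3.09), after 31.2 and 35.2 CPM in the earlier libraries, so maturation was the highest of the 4. The tight junction gene cldn5b stood at 37.3 and 84.7 CPM and the prostaglandin synthase ptgs2a at 42.7 and 102 CPM. The most abundant gene called higher outside the mitochondrial genome was hsp70l, an inducible chaperone, at 3923 and 10960 CPM (2.79-fold, 2.78 to 2.81), and its background was 1995 and 3273 CPM.

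The aryl hydrocarbon receptor is a transcription factor that binds flat aromatic ligands and switches on cytochrome P450 genes of family 1. None of its 17 listed genes, which include hypoxia genes, was higher in ECs and 8 were lower, with a median of -0.64 against -0.19 for all genes and 6.23% lower among all genes. Relative to the median gene 6 were lower. The receptor target cyp1a stood at 334 CPM at expansion and 34.6 CPM at maturation, 9.65-fold lower (8.95 to 10.4). It had stood at 1250 CPM at initiation and 197 CPM at establishment, so its order across the libraries was not a steady one. A UMI of cyp1a was found in 15.7% of thinned EC barcodes at expansion and 2.39% at maturation. Background fell too, from 152 to 10.4 CPM.

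The other targets moved less. The enzymes cyp1b1 (830 and 288 CPM, 2.88-fold lower, 2.80 to 2.96) and cyp1c1 (601 and 213 CPM) and the induced ADP-ribosyltransferase tiparp (643 and 215 CPM) fell about 3-fold. The receptor ahr2 itself stood at 1579 and 741 CPM, 2.13-fold lower, and relative to the median gene it was under 2-fold. Among the hypoxia genes of the list, the oxygen-sensing prolyl hydroxylases egln2 (458 and 148 CPM) and egln1b (259 and 88.1 CPM) were lower. Hexokinase hk2, which is in the glycolysis list and not in this one, was lower too (248 and 102 CPM). In the epicardial gate cyp1a went the other way, from 31.1 to 89.0 CPM, and in the CM gate it stood at 71.3 and 12.9 CPM. The lower list was not particular to ECs. In the CM gate none of 15 members was higher and 5 were lower (median -0.73), or 3 lower relative to the median gene. Among all genes there, 4.78% were higher and 9.7% lower. In the epicardial gate 2 of 17 were higher and 4 lower (median -0.15), against 3.46% and 8.16% of all genes.

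Of the 10 named lower genes of the EC gate, the sharpest fall was of ifitm1, an interferon-induced membrane protein gene, from 431 to 31.8 CPM (13.5-fold, 12.5 to 14.7). It had stood at 190 and 100 CPM in the earlier libraries, and background fell from 273 to 10.4 CPM. In the epicardial gate ifitm1 stood at 324 and 29.9 CPM. Globin genes, which were left out of the naming, were also lower in the EC gate, with all 4 red blood cell markers compared called and a sum of 3621 and 273 CPM over the list against a background of 17572 and 3495 CPM. The pro-apoptotic gene bbc3 (Puma) fell from 127 to 35.9 CPM, the RNA-editing enzyme adarb1a from 460 to 135 CPM, the scaffold dlg3 from 301 to 81.3 CPM and the ribonuclease rnaset2 from 168 to 42.2 CPM. Secreted interleukin il11a fell from 203 to 59.9 CPM and the lysophosphatidic acid receptor lpar6a from 113 to 33.9 CPM. The loci CR318588.3 (690 and 110 CPM) and XLOC_041870 (100 and 10.1 CPM) have no annotated role here.

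Among clotting and growth signals of ECs, single members were called. Of 33 genes of flow and haemostasis, 3 were higher and 4 lower (median -0.10), or 3 higher and 1 lower relative to the median gene. Among all genes, 2.87% were higher and 6.23% lower, or 4.31% and 3.36% relative to the median gene. The protease inhibitor tfpi2 fell from 293 to 139 CPM. The growth factor igf2b fell from 759 to 330 CPM (2.30-fold), after 2067 CPM at initiation, and the feedback inhibitor socs2 from 142 to 43.9 CPM. The glucocorticoid-induced fkbp5 fell from 160 to 55.5 CPM and the transcription factor foxo1a from 925 to 411 CPM. When all mitochondrial UMIs left the total, tfpi2 (-0.79), igf2b (-0.91) and foxo1a (-0.89) were under 2-fold.

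Most vessel identity genes in the marker lists were not called. The Vegf receptors kdrl (265 and 260 CPM), kdr (393 and 316 CPM) and flt1 (369 and 198 CPM, 1.86-fold lower) and the receptor tie1 (261 and 294 CPM) were not called, and neither was the endocardial factor nfatc1 (512 and 453 CPM). None of the pan-endothelial or endocardial markers was called, while 2 of 6 coronary endothelium markers (aplnrb and cxcr4a) were higher and the 1 lymphatic marker compared, prox1a, was lower at 15.15 and 6.27 CPM. Among 31 Vegf and angiogenesis genes 5 were higher and 1 lower (median 0.11), against 2.87% and 6.23% of all genes. The lowest value in the list was -1.32. A UMI of its arterial member unc5b was found in 10.8% of thinned EC barcodes at expansion and 4.37% at maturation. Arterial efnb2a (5.84% and 7.59%) and efnb2b (47.5% and 46.6%) differed less. The higher ones were low in level, such as the chemokine receptor cxcr4a at 5.73 and 18.8 CPM and the apelin receptor aplnrb at 15.8 and 32.7 CPM. Of 21 Notch genes 1 was higher, hey1, at 7.84 and 18.9 CPM. Of the cell cycle genes 5 passed the filter and 1 was lower, the replication clamp pcna, at 66.3 and 30.2 CPM. Relative to the median gene pcna was not called.

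CM transcripts in the EC gate were also higher, at levels below background. Of 8 CM markers 6 were called higher, and their sum went from 2458 to 5594 CPM while their background went from 27565 to 38232 CPM. The light chain cmlc1 stood at 551 and 1660 CPM in the EC gate, and the chain subunits cox6a2 (30.6 and 108 CPM) and ndufa4 (35.5 and 117 CPM) behaved alike. These 2 count among the 6 of 82 oxidative phosphorylation genes that were higher (1 was lower, median 0.34), against 2.87% and 6.23% of all genes. The 7 of 19 sarcomere genes that were higher are genes of CMs as well. Background values for all of these exceeded the gate values, so they are not read as EC expression. The sum of the epicardial markers went the other way in the EC gate, at 5506 and 3251 CPM with background at 4471 and 1569 CPM. None of the 7 compared was called, and their median (-0.19) was that of all genes (-0.19). So the list as a whole did not shift.

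**Figure D4:**
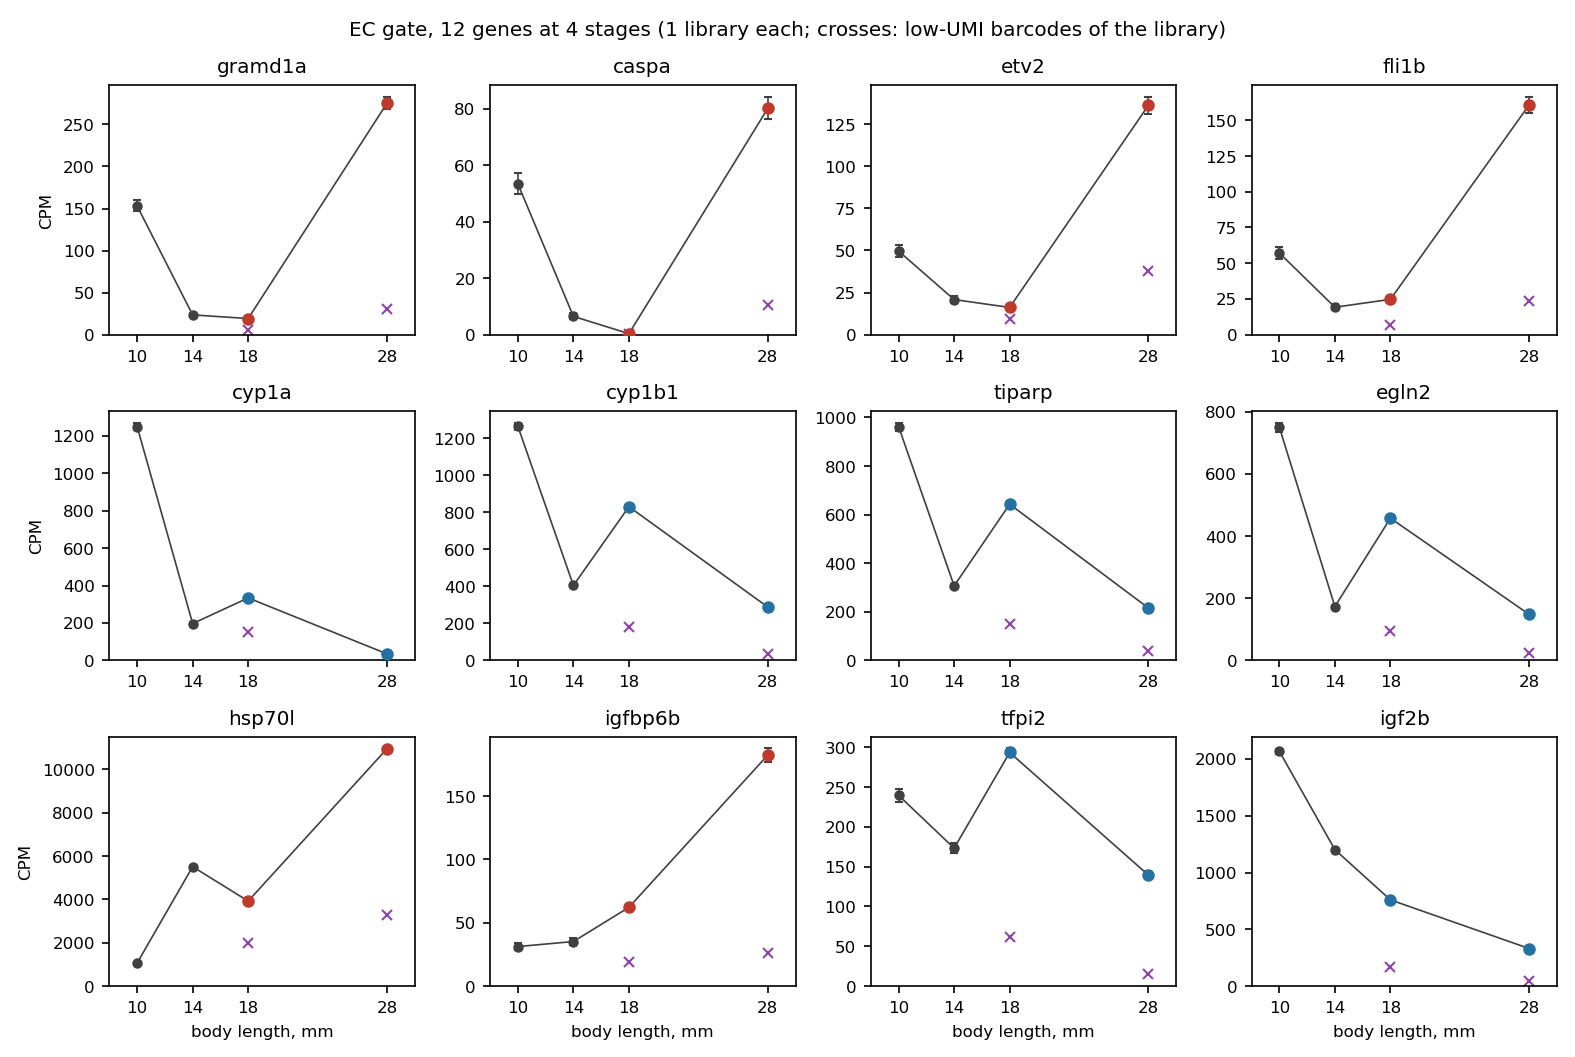
CPM (y, from 0) of 12 genes in the EC gate against body length in mm (x), 1 library per stage, with 95% counting intervals; crosses are the CPM in barcodes of 1 to 100 UMIs of the expansion and maturation libraries. gramd1a, caspa, etv2 and fli1b were high in the 10 mm and 28 mm libraries, cyp1a fell from 334 CPM at 18 mm to 34.6 CPM at 28 mm, and igfbp6b and hsp70l reached their highest value at 28 mm.

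In the epicardial gate, single genes such as wt1b and the chemokine cxcl18b were higher at maturation, and matrix, glucocorticoid response and smooth muscle lists held more lower than higher members. The epicardial regulator wt1b stood at 166 CPM at expansion and 355 CPM at maturation, 2.14-fold higher (1.96 to 2.34), after 158 and 154 CPM in the earlier libraries. The other regulators were not called, with tcf21 at 269 and 160 CPM (1.68-fold lower), tbx18 at 262 and 200 CPM and the retinoic acid enzyme aldh1a2 at 553 and 605 CPM. In all, 1 of 32 genes listed as epicardial regulators was higher and none lower (median -0.22), against 3.46% and 8.16% of all genes. Few epicardial barcodes passed the filter on mixed and very large barcodes, 157 at expansion and 35 at maturation. Its marker lists of other classes include fn1b and pdgfrb. A UMI of fn1b was found in 93.4% of thinned epicardial barcodes at expansion and 95.6% at maturation. So the filter could also remove epicardial barcodes for their own genes, and the number left is no measure of mixing. In the barcodes left, wt1b stood at 0.56 on the log2 scale.

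Higher epicardial genes included secreted and membrane proteins. The potassium channel subunit kcnab1a went from 44.6 to 268 CPM (6.0-fold, 5.17 to 6.99), although it had stood at 335 CPM at initiation. The neuronal zinc finger gene znf804a went from 11.2 to 99.5 CPM and the sodium pump subunit atp1a3b from 28.0 to 117 CPM. The matrix-associated smoc1 went from 55.4 to 198 CPM (3.58-fold, 3.10 to 4.14) and the secreted crispld2 from 35.7 to 118 CPM. The globin-family gene cygb1 (cytoglobin) went from 334 to 954 CPM (2.86-fold, 2.69 to 3.03), with background at 9.20 and 14.9 CPM, and ppdpfa from 411 to 1460 CPM (3.55-fold, 3.37 to 3.74). The GTP-binding protein gene gtpbp1 stood at 30.7 and 115 CPM and the lactate exporter slc16a3 at 23.9 and 79.0 CPM. Of the 10 named higher genes, znf804a, gtpbp1, smoc1 and ppdpfa kept at least 2-fold without mixed barcodes. Over all epicardial calls, 97 of the 248 higher genes and 306 of the 585 lower genes were then still called.

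Genes of cytokines, chemokines and complement were called in both directions. The macrophage growth factors il34 (26.1 and 86.4 CPM, 3.31-fold, 2.68 to 4.1) and csf1a (67.0 and 183 CPM, 2.73-fold, 2.39 to 3.13), which share a receptor, were higher. The chemokine cxcl18b stood at 1382 and 3527 CPM (2.55-fold, 2.48 to 2.63) and the complement gene c7b at 31.1 and 89.8 CPM. The chemokine cxcl12a instead fell from 181 to 71.4 CPM. Of 10 complement genes 1 was higher and 2 lower, among them cfd, which activates the alternative pathway, at 542 and 179 CPM, and clu, a complement inhibitor, at 106 and 22.5 CPM. Among all genes of the gate, 3.46% were higher and 8.16% lower.

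Matrix genes were lower in larger number. Of 49 genes of matrix and crosslinking, 2 were higher and 15 lower (median -0.42, against -0.14 for all genes), and of 19 collagens 4 were lower and none higher (median -0.29). Among all genes of the gate, 3.46% were higher and 8.16% lower. Dermatopontin, dpt, fell from 112 to 13.4 CPM (8.35-fold, 6.19 to 11.5), and the hyaluronan link protein hapln1a from 87.9 to 14.2 CPM (6.19-fold, 4.61 to 8.47). Background was 38.56 and 11.097 CPM for dpt and 29.0 and 29.7 CPM for hapln1a, so at maturation hapln1a lay under background. The matricellular gene cyr61 fell from 588 to 254 CPM and col18a1b from 134 to 45.5 CPM. Core fibrillar collagens were not called, with col1a2 at 614 and 704 CPM and col5a1 at 679 and 597 CPM, and neither were decorin, dcn (713 and 534 CPM), or fibronectin, fn1b (2688 and 3272 CPM). The fibroblast marker list had 1 higher and 3 lower of 7, with dpt, hapln1a and the growth factor receptor pdgfra (70.5 and 31.0 CPM) lower. These 3 are shared with other lists.

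Glucocorticoid and thyroid genes had none of 16 higher and 7 lower (median -0.93), against 3.46% and 8.16% of all genes in the gate. The enzyme hsd11b2 fell from 338 to 113 CPM, fkbp5 from 170 to 69.4 CPM, the glucocorticoid-induced tsc22d3 from 89.6 to 34.7 CPM and foxo3b from 267 to 115 CPM. The hairy-related repressors her9 (293 and 51.5 CPM) and her6 (1257 and 529 CPM) and the immediate early gene egr1 (660 and 271 CPM) were lower as well, her9 to under its background of 61.4 CPM. Heat shock genes had 7 of 35 lower and none higher, led by the co-chaperone dnajb1b at 2023 and 644 CPM (3.14-fold, 3.0 to 3.29). Of 17 retinoic acid genes 1 was lower, the retinoic acid degrading enzyme cyp26b1, at 22.8 and 5.12 CPM. The retinol carrier rbp4 stood at 11020 and 5513 CPM (interval of the fold 1.97 to 2.03), just short of a call. Without mixed barcodes her6 stood at -0.19 and cxcl12a at -0.97.

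Smooth muscle genes fell in the epicardial gate too. Smooth muscle actin, acta2, stood at 145 CPM at expansion and 1.99 CPM at maturation (73.0-fold, 35.2 to 182). The 61 barcodes with smooth muscle markers at expansion held 96.1% of its UMIs, and without mixed barcodes its difference was 1.46 on the log2 scale. Of 6 smooth muscle markers 5 were lower, with a sum of 448 and 103 CPM, while the share of barcodes with such markers was 9.76% and 11.5%. At initiation and establishment the sum had been 706 and 188 CPM. Of 4 pericyte markers compared, none was higher and 2 were lower (median -0.69), against 3.46% and 8.16% of all genes. The sum over the pericyte list was 712 and 932 CPM, most of it pdgfrb at 594 and 872 CPM. Fewer mural cells in the gate and less acta2 RNA per cell cannot be told apart in sums, and their part was not tested. Other lower genes were ifitm1 and the loci BX005183.3 (106 and 9.95 CPM), CR753876.1 (378 and 37.2 CPM) and XLOC_044191 (480 and 57.4 CPM), which have no annotated role here.

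**Figure D5:**
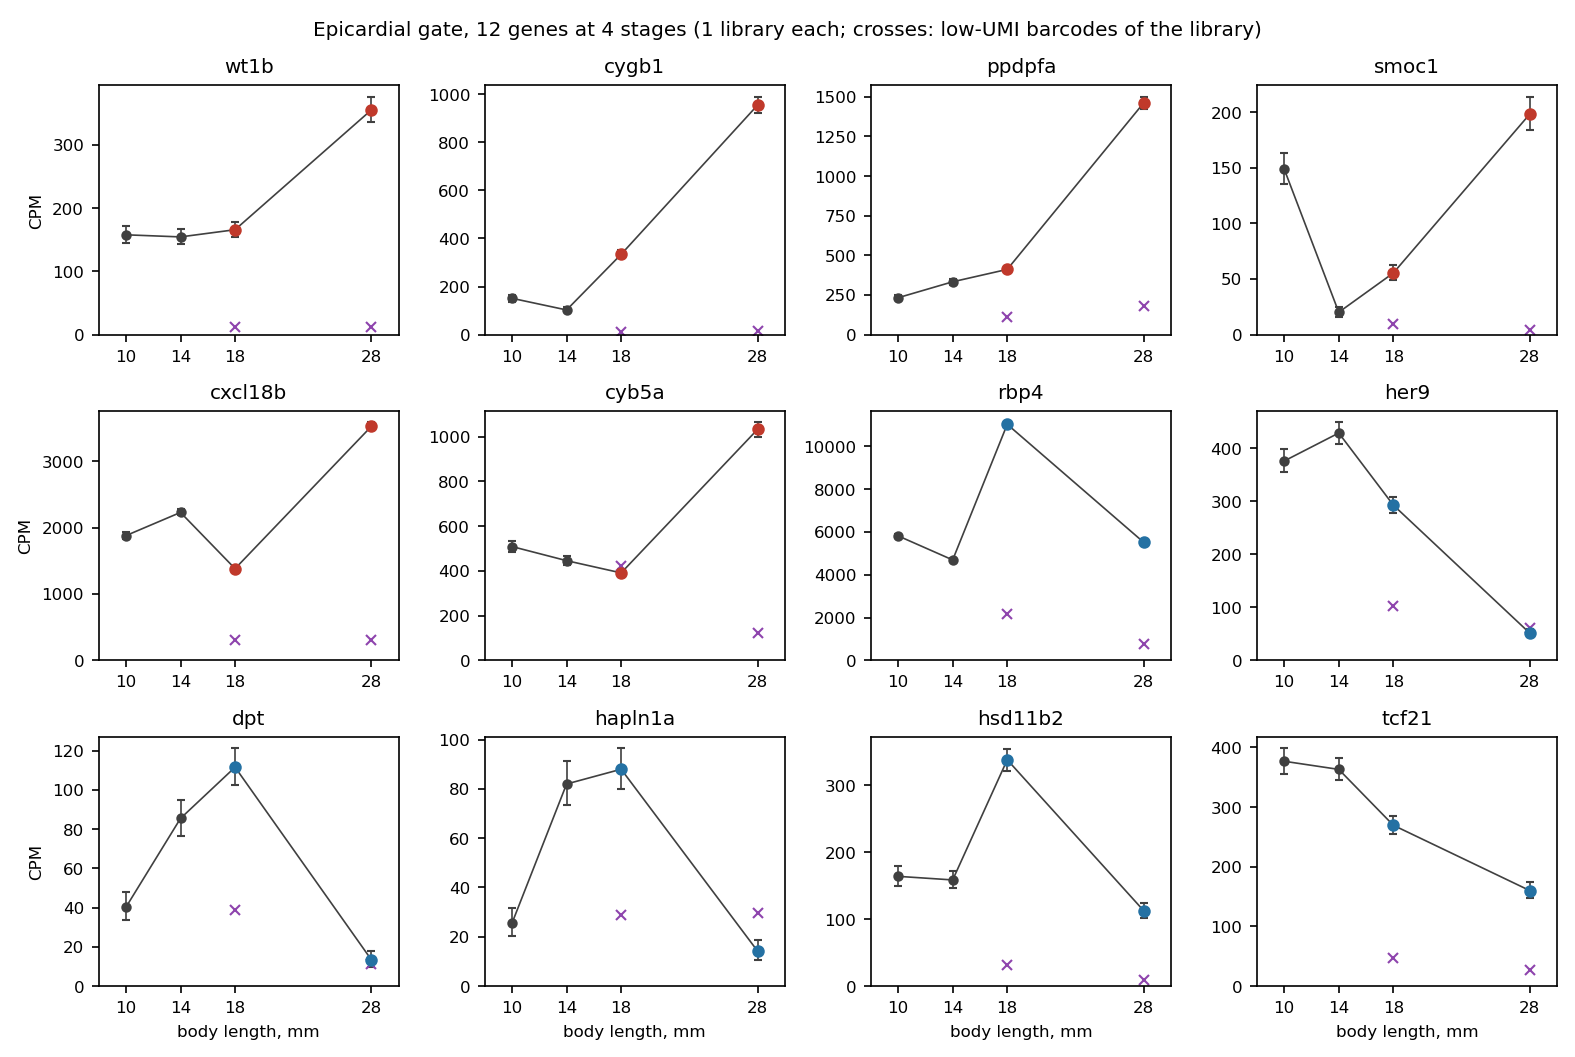
CPM (y, from 0) of 12 genes in the epicardial gate against body length in mm (x), 1 library per stage, with 95% counting intervals; crosses are the CPM in barcodes of 1 to 100 UMIs of the expansion and maturation libraries. wt1b, cygb1, ppdpfa and cxcl18b reached their highest value at 28 mm, whereas dpt, hapln1a and her9 were at their lowest there.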

How the data were processed

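Ventricle pools (1 per stage) were dissociated with collagenase and TrypLE and run on the Chromium 3′ v3.1 chemistry. The deposited values are raw UMI counts per gene and barcode, which the authors made with Cell Ranger, without normalization, against the GRCz11 build and the Lawson transcriptome annotation. The submitters' processing notes name version 6.1.2 and the file headers 7.1.0. Matrices were unfiltered, with 36351 genes.

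Barcodes were filtered and gated as the report states, and counts were summed per gate and library. CPM intervals are exact Poisson and fold intervals exact Clopper-Pearson (95%). A count of 0 was set to 3. No doublet caller was run, and mixed barcodes were left out in an alternative. Named genes were the 10 per gate and direction with the largest fold among genes with mean CPM of at least 50, called also by median of ratios and above background in the higher library, plus up to 4 members per list. Further genes (csf1a, cxcl18b, ahr2, cyp26b1, prox1a, the neighbours of etv2, hcn4, angpt4, pcna, cxcr4a, aplnrb, hey1 and genes given as not called) were named after their values were seen. Of 28 pathway lists (1246 entries) 58 entries were unmatched, and of 16 marker lists (131 entries) 5. Members, gates and lists were chosen with earlier results of these data known. In all, 13 planned and 3 added alternatives were run. RefSeq gene order was matched for 22631 genes. No reads or sequences were used. Python 3.11.15, NumPy 2.4.6, SciPy 1.17.1, pandas 2.3.3 and matplotlib 3.10.9 were used. The script was tested on simulated counts. 1 item is not reported here.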

Additional observations from a re-analysis of the deposited data

Results flagged for a closer look

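The 9 genes given here moved at least 2-fold in opposite directions in 2 cell classes. They were picked by their values and not from the named genes alone. XLOC_025423, cyb5a, si:ch211-178n15.1 and ulk1a are not among the named genes. In each case the difference between the classes was not tested, since each stage is 1 library.

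Between CMs and the epicardial gate, the difference of the log2 values (CM minus epicardial) was -3.76 for the lactate exporter slc16a3, which stood at 101 and 24.6 CPM in CMs and 23.9 and 79.0 CPM in the epicardial gate. It was -2.38 for the fatty acid importer cpt1ab (83.0 and 37.9 CPM against 30.7 and 73.1 CPM), 2.71 for the creatine enzyme gamt (189 and 555 CPM against 238 and 107 CPM) and 2.95 for the locus XLOC_025423 (66.7 and 157 CPM against 80.5 and 24.4 CPM).

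Between ECs and the epicardial gate, the difference (EC minus epicardial) was -4.79 for the P450 gene cyp1a, at 334 and 34.6 CPM against 31.1 and 89.0 CPM. It was -3.09 for the GTP-binding protein gene gtpbp1 (118 and 51.7 CPM against 30.7 and 115 CPM) and -2.71 for cytochrome b5, cyb5a (1076 and 435 CPM against 391 and 1033 CPM). It was -2.60 for si:ch211-178n15.1 (814 and 289 CPM against 272 and 583 CPM) and -2.34 for the autophagy kinase ulk1a (128 and 63.7 CPM against 101 and 254 CPM). The EC value of ulk1a was -1.01 on the log2 scale, which is under 2-fold relative to the median gene of that gate (-0.19). At expansion, the epicardial values of gtpbp1 (background 45.5 CPM), cyp1a (152 CPM) and cyb5a (420 CPM) lay under background.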

How the results depend on the processing

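No paired analysis was possible because each stage is 1 library, and for the same reason no library could be left out. All 10 named genes per direction kept at least 2-fold in each gate under each alternative other than the 2 ways of leaving out barcodes given with the genes. For median-of-ratios scaling the naming rule fixed this in advance. These genes also had the largest folds, so the result says little about the other calls. Without mixed and very large barcodes the sign turned in the CM gate for spns2 (-1.06), myh11a (0.77), esama (-1.88), krt18b (0.19) and nr3c2 (-0.11), and in the epicardial gate for acta2 (1.46), ctgfa (0.0099) and nrp2a (-0.93). These epicardial values rest on 35 barcodes at maturation, and no direction is read from acta2 there. Without barcodes holding smooth muscle markers the sign turned in the CM gate for rgs5a (0.088), tpm1 (0.99), myh11a (1.02), cfd (0.34), f3a (0.34) and krt18b (0.88). The cause was not tested.

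Counts of genes higher and lower moved most with the threshold and filter. They were 847 and 1258 (CM), 573 and 1515 (EC) and 727 and 1503 (epicardial) at 1.5-fold, 28 and 110, 29 and 27, and 27 and 105 at 4-fold, 58 and 236, 49 and 187, and 68 and 154 at a mean CPM of at least 50, and 2141 and 2076, 2799 and 1863, and 972 and 2426 with no filter on low genes. Without mixed and very large barcodes, lower genes numbered 1344 (CM), and higher and lower genes 748 and 1320 (epicardial). Median-of-ratios scaling left 303 higher and 236 lower EC genes. Background subtracted by globin gave 486 higher CM genes. The following 3 alternatives were chosen after seeing the data. All mitochondrial names and globin out of the total gave 505 and 192 (EC) and 381 higher (epicardial), the profile of low-gene barcodes subtracted gave 527 higher (CM) and 345 and 258 (EC), and no smooth muscle barcodes gave 499 higher (CM). The cause of these moves was not tested, apart from the number of genes or barcodes each setting leaves. The epicardial gate held the fewest barcodes, 296 at maturation, and with barcodes thinned to 2500 UMIs 181 of its 248 higher and 448 of its 585 lower genes were still called.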
